A study of Mus musculus with 8 samples.

Results

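NFIB and NFIX belong to nuclear factor I, a family of transcription factors that bind DNA as dimers, and both are made by the stem cells of the hair follicle bulge. Bulge stem cells rest through telogen, feed the next hair cycle, and are marked by CD34, integrin alpha 6, keratin 15, SOX9 and LHX2. The comparison described here sets bulge stem cells that lost both factors (NFIB/X-dKO) against stem cells that lost NFIX (NFIX-cKO), and asks what loss of NFIB adds when NFIX is already deleted. It used the 4 libraries of the 8 in the series that belong to these groups, 2 in each group, chosen by their genotype labels, and all genes measured in them by RNA sequencing.

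The NFIB/X-dKO mice carried Sox9-CreER together with NFIBfl/fl and NFIXfl/fl, and with R26-YFPfl/fl. The NFIX-cKO mice carried Sox9-CreER with NFIBfl/+ and NFIXfl/fl, and also R26-YFPfl/fl, so they had 1 floxed Nfib allele, and the comparison is of cells with both Nfib alleles floxed against cells with 1 floxed. Each also had a floxed YFP reporter at R26 and a Cre driven by Sox9. A second pair of groups served for comparison: NFIB-cKO mice carried Sox9-CreER with NFIBfl/fl and R26-YFPfl/fl, and WT mice carried NFIBfl/fl and NFIXfl/fl with R26-YFPfl/fl and no Cre, 2 libraries each. All animals were male and at postnatal day 70, which the labels place in the second telogen. Back skin cells were sorted as DAPI-negative, Sca-1-negative, integrin alpha 6-positive and CD34-positive, and the 3 knockout groups were also sorted for YFP, so the gate was the same for NFIB/X-dKO and NFIX-cKO. Each library had a number in its title, taken as that of the animal: 33 and 36 for NFIB/X-dKO, and 32 and 88 for NFIX-cKO. Nothing in the labels describes the animals further, so p-values measure the spread between these libraries.

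Expected count totals ran between 57173266 and 63773522 in the 4 libraries, and 18349 of 46517 genes passed the filter on low counts. The library NFIX-cKO 88 stood apart. Over 13986 well measured genes, 0.837% differed more than 2-fold between NFIB/X-dKO 33 and 36, against 10.5% between NFIX-cKO 32 and 88. NFIB/X-dKO 33 and 36 differed more than 2-fold from NFIX-cKO 32 in 5.29% and 5.26% of these genes, and from NFIX-cKO 88 in 14.0% and 12.8%. The main counts, and those of the gene lists described singly, are therefore also given without NFIX-cKO 88, which leaves animals numbered in the 30s.

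The targeted genes were checked first. Nfib (chr4:82290173-82705750, GRCm38, minus strand) had 377 and 389 TPM (transcript abundance per length, with an equal total for each library) in NFIB/X-dKO, against 199.97 and 148 TPM in NFIX-cKO. The NFIB/X-dKO libraries lay above both NFIX-cKO libraries, and the call depended on the test (log2 fold change 0.94 ± 0.15 SE). The edgeR test with all 4 libraries gave an adjusted p of 0.13 and made no call. The adjusted p was 7.4e-07 with DESeq2, 0.0024 with edgeR without NFIX-cKO 88 and 0.047 with limma on TPM. Nfix (chr8:84699876-84800344, minus strand) had 125 and 148 TPM in NFIB/X-dKO, against 138 and 123 TPM in NFIX-cKO, and the groups overlapped. The labels do not name the exons that were floxed, and gene totals include any transcript made from a deleted allele, so these totals check no label. Among the other family members, Nfia had 16.3 and 16.2 TPM in NFIB/X-dKO, against 11.4 and 8.62 TPM in NFIX-cKO (log2 0.61 ± 0.10, edgeR adjusted p = 0.14). DESeq2 called Nfia higher (adjusted p = 0.021) and limma on TPM did not (adjusted p = 0.20). Its log2 fold change without NFIX-cKO 88 was 0.65. Nfic had 35.1 and 40.0 TPM in NFIB/X-dKO, against 36.9 and 25.8 TPM in NFIX-cKO, with overlapping groups. Esr1, whose product lends its ligand-binding part to CreER proteins, had 12.6 and 19.9 TPM in NFIB/X-dKO and 15.1 and 26.1 TPM in NFIX-cKO, and 0.47 and 0.33 TPM in the WT libraries without Cre. Whether those reads came from the transgene was not tested.

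The labelled cell type was checked against markers of the bulge. Cd34 had 958 and 861 TPM in NFIB/X-dKO, against 1079 and 1072 TPM in NFIX-cKO, and Krt15 had 7507 and 8704 TPM in NFIB/X-dKO, against 13838 and 14487 TPM in NFIX-cKO. Itga6 had 202 and 218 TPM in NFIB/X-dKO, against 167 and 134 TPM in NFIX-cKO. These defining markers were thus present in all 4 libraries, as were Krt5, Krt14, Sox9 and Lhx2. Lhx2, a transcription factor that maintains bulge stem cells, had 104 and 122 TPM in NFIB/X-dKO, against 210 and 262 TPM in NFIX-cKO (log2 -1.36 ± 0.25, adjusted p = 0.16). Krt14 differed by -1.15 ± 0.18 (adjusted p = 0.12), Krt15 by -1.08 ± 0.23 (adjusted p = 0.20), Cd34 by -0.50 ± 0.17 (adjusted p = 0.31), Krt5 by -0.34 ± 0.21 (adjusted p = 0.51), Sox9 by -0.22 ± 0.44 (adjusted p = 0.83, and 0.39 without NFIX-cKO 88) and Itga6 by 0.28 ± 0.13 (adjusted p = 0.40) on the log2 scale. None of the 7 passed edgeR's test with all 4 libraries. DESeq2 called Krt14 (adjusted p = 7.1e-08), Krt15 (4.3e-05) and Lhx2 (5.7e-05) lower, and edgeR without NFIX-cKO 88 called the same 3 genes (adjusted p = 0.0012, 0.0042 and 0.0096). Limma on TPM called Lhx2 (adjusted p = 0.039) and neither keratin. Ly6a, which encodes the Sca-1 antigen the sort selected against, had 28.7 and 24.4 TPM in NFIB/X-dKO, against 36.9 and 10.9 TPM in NFIX-cKO.

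Between NFIB/X-dKO and NFIX-cKO, 59 genes differed at an adjusted p under 0.05 (edgeR's quasi-likelihood test on expected counts, Benjamini-Hochberg adjustment), which is 0.322% of the genes tested. Of these, 22 rose (0.12%) and 37 fell (0.202%), and 42 changed by more than 4-fold. Among the rises were Piezo2, a mechanically gated ion channel, the imprinted gene Mest, and the secreted Wnt inhibitor Wif1. Among the falls were Myoc, the bulge keratin Krt24 and the fatty acid enzymes Elovl3 and Scd1. The adjusted p lay between 0.0372 and 0.0461 for all 59, just inside the threshold, while 141 further genes had one between 0.05 and 0.10. At an unadjusted p under 0.05 there were 2701 genes. All 59 had groups that did not overlap in normalised counts, which held for 50.4% of all genes tested, since the groups are small. A second tool, DESeq2, called 839 genes (4.57%), 352 higher (1.92%) and 487 lower (2.65%), among them all 59. Without NFIX-cKO 88, edgeR called 1741 genes (9.11%), 860 higher (4.5%) and 881 lower (4.61%), again with all 59 among them. Without NFIX-cKO 32 it called 6939 genes (36.4%), and without NFIB/X-dKO 33 or 36 it called 0. With 1 library left out the spread comes from the other group's pair alone, which is the close NFIB/X-dKO pair when an NFIX-cKO library is left out, and the wide NFIX-cKO pair when an NFIB/X-dKO library is left out. At an unadjusted p under 0.05, edgeR gave 813 genes without NFIB/X-dKO 33 and 811 without NFIB/X-dKO 36. The 59 genes kept their direction in all of these fits. The shares over all genes given here are the background for the counts of list members below. The split between rises and falls moved with the scaling: limma on log2(TPM + 1), with the median gene at 0.19 in place of -0.00, called 71 higher and 50 lower (0.784% of those tested), or 58.7% higher against 37.3% in the count test.

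**Figure D1:**
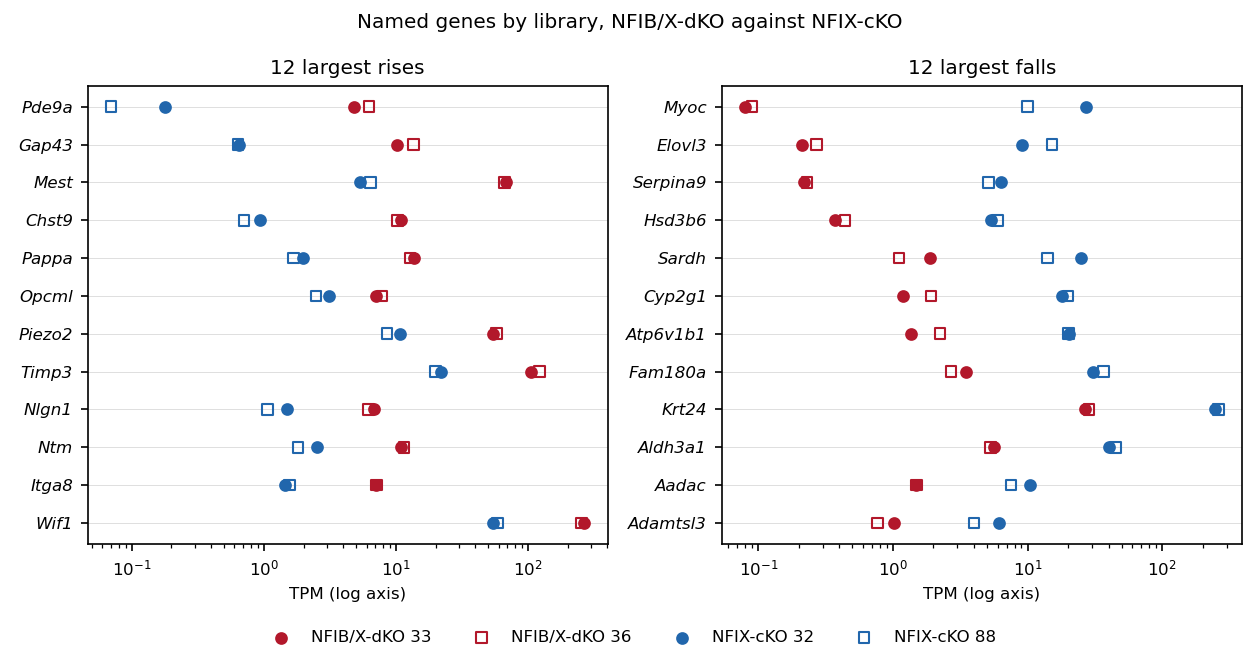
TPM on a log axis in each of the 4 libraries for the 12 genes with the largest rises (left) and the 12 with the largest falls (right) among genes past the test with at least 5 TPM in the higher group; red marks NFIB/X-dKO and blue NFIX-cKO. In every gene shown both red points lie on the same side of both blue points, and the points of a pair are mostly closer to each other than to the other group.

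Several genes known from neurons were among the largest rises. Piezo2 (chr18:63010213-63387183), the channel that senses touch in sensory neurons and Merkel cells, had 54.1 and 57.7 TPM in NFIB/X-dKO, against 10.7 and 8.58 TPM in NFIX-cKO. Both NFIB/X-dKO libraries lay far above both NFIX-cKO libraries, a 5.49-fold rise (log2 2.46 ± 0.15). Gap43 (chr16:42248442-42340651), a protein of growing axons, had 10.2 and 13.6 TPM in NFIB/X-dKO, against 0.65 and 0.64 TPM in NFIX-cKO. The gene was thus barely detected in either NFIX-cKO library and rose 15.5-fold (log2 3.95 ± 0.29). Nlgn1, a synaptic adhesion protein, had 6.87 and 6.22 TPM in NFIB/X-dKO, against 1.5 and 1.07 TPM in NFIX-cKO (log2 2.196 ± 0.18). Opcml and Ntm are neighbours on chromosome 9 and encode neural adhesion proteins of the IgLON family. Opcml had 7.07 and 7.87 TPM in NFIB/X-dKO, against 3.12 and 2.48 TPM in NFIX-cKO (log2 2.48 ± 0.20), and with the deposited effective lengths as an offset its rise was 1.18 (adjusted p = 0.14), no longer past the test. Ntm had 10.98 and 11.5 TPM in NFIB/X-dKO, against 2.51 and 1.82 TPM in NFIX-cKO (log2 2.14 ± 0.18). Map1b, which binds microtubules in neurons, also rose (log2 1.92 ± 0.15). Abcc8, the sulfonylurea receptor of potassium channels, had 2.04 and 2.67 TPM in NFIB/X-dKO, against 0.10 and 0.12 TPM in NFIX-cKO (log2 4.14 ± 0.34).

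Most ion channel and neural genes did not pass the test. Of 29 ion channel and neural genes tested, 3 rose (Piezo2, Gap43 and Nlgn1) and 0 fell, and the median of the list was -0.26 on the log2 scale, against -0.00 over all genes tested. DESeq2 called 4 higher and 6 lower, and edgeR without NFIX-cKO 88 called 4 higher and 8 lower. Over all genes tested, DESeq2 called 1.92% higher and 2.65% lower. The next members of the list by edgeR's p differed in opposite directions without passing edgeR's test with all 4 libraries. Trpv4, a cation channel of keratinocytes, had 31.8 and 34.3 TPM in NFIB/X-dKO, against 64.0 and 58.5 TPM in NFIX-cKO (edgeR adjusted p = 0.064). Ncam1, a neural adhesion protein, had 2.61 and 2.77 TPM in NFIB/X-dKO, against 0.56 and 0.30 TPM in NFIX-cKO (edgeR adjusted p = 0.067). DESeq2 called Trpv4 lower (adjusted p = 4.8e-09) and Ncam1 higher (adjusted p = 3.5e-14). Limma on TPM called neither (adjusted p = 0.14 and 0.060). Markers of Merkel cells and nerve, which also express Piezo2, summed to 14.9 and 12.2 TPM in NFIB/X-dKO and 11.7 and 9.53 TPM in NFIX-cKO, below the level of Piezo2 alone in NFIB/X-dKO. Of these 11 markers 7 were at or under 1 TPM in every library and Isl1 was listed at 0.

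Mest, Timp3, Pappa and Wif1 also rose. Mest (chr6:30723547-30748465), an imprinted gene expressed from the paternal allele in mouse, had 68.1 and 66.1 TPM in NFIB/X-dKO, against 5.31 and 6.45 TPM in NFIX-cKO. The groups were far apart and each pair was close, and Mest rose 10.9-fold (log2 3.45 ± 0.26). Timp3 (chr10:86300372-86349506), an inhibitor of metalloproteinases that binds to the matrix, had 106 and 123 TPM in NFIB/X-dKO, against 21.97 and 19.96 TPM in NFIX-cKO. Its rise of 4.63-fold (log2 2.21 ± 0.15) was one of 2 among 28 matrix proteases and inhibitors tested. Pappa, the protease that cleaves an IGF-binding protein, was the other, with 13.6 and 12.8 TPM in NFIB/X-dKO, against 1.97 and 1.68 TPM in NFIX-cKO (log2 2.61 ± 0.10). The median of that list was -0.24, and -0.01 without NFIX-cKO 88, with 0 members called lower with all 4 libraries. DESeq2 called 3 of the 28 higher and 6 lower, and edgeR without NFIX-cKO 88 called 6 higher and 5 lower. Wif1 (chr10:121033960-121100650) had 267 and 254 TPM in NFIB/X-dKO, against 54.8 and 58.6 TPM in NFIX-cKO. It was the most abundant of the 12 named rises by TPM and it rose by 1.95 ± 0.16 on the log2 scale. With all 4 libraries edgeR called 1 of 43 Wnt pathway genes higher, Wif1, and 0 lower. In the same list DESeq2 called 5 higher and 5 lower, and edgeR without NFIX-cKO 88 called 11 higher and 7 lower. Itga8, the alpha chain of an integrin that binds nephronectin, had 7.03 and 7.11 TPM in NFIB/X-dKO, against 1.46 and 1.57 TPM in NFIX-cKO (log2 2.12 ± 0.13). Chst9, which adds sulfate to N-acetylgalactosamine, had 10.95 and 10.3 TPM in NFIB/X-dKO, against 0.94 and 0.71 TPM in NFIX-cKO (log2 3.40 ± 0.21). Smaller rises were those of Synpo2, an actin-binding protein (log2 1.91 ± 0.14), Cnksr2, a scaffold of Ras signalling (1.46 ± 0.12), Sphkap, an anchor of protein kinase A (1.43 ± 0.12), and Aox1, an aldehyde oxidase (1.42 ± 0.12).

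Myoc (chr1:162639155-162649693), which encodes the secreted glycoprotein myocilin, fell the most among the named genes. It had 0.08 and 0.09 TPM in NFIB/X-dKO, against 27.1 and 9.96 TPM in NFIX-cKO (log2 -7.91 ± 0.62), and the fold change ranged between -8.38 and -7.21 on the log2 scale when single libraries were left out. The NFIX-cKO libraries differed from each other for this gene, yet the lower of them was far above both NFIB/X-dKO libraries. Krt24 (chr11:99279959-99285262), a type I keratin of the bulge, had 26.7 and 28.6 TPM in NFIB/X-dKO, against 248 and 261 TPM in NFIX-cKO. It fell 10.96-fold (log2 -3.45 ± 0.18), with pairs that hardly differed within a group. Grem1, a secreted antagonist of bone morphogenetic proteins, had 68.7 and 65.4 TPM in NFIB/X-dKO, against 197 and 182 TPM in NFIX-cKO (log2 -1.75 ± 0.13). Krt24 and Grem1 were the 2 lower and there were 0 higher among 34 genes of hair follicle stem cell identity, whose median was -0.43 with all 4 libraries and -0.05 without NFIX-cKO 88. Without that library 11 of the 34 were called lower and 5 higher. DESeq2 with all 4 called 10 lower and 1 higher.

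Enzymes accounted for several of the largest falls. Sardh, the mitochondrial sarcosine dehydrogenase, had 1.89 and 1.11 TPM in NFIB/X-dKO, against 25.1 and 14.1 TPM in NFIX-cKO (log2 -3.98 ± 0.28). Hsd3b6, a steroid dehydrogenase, had 0.37 and 0.44 TPM in NFIB/X-dKO, against 5.38 and 6.0 TPM in NFIX-cKO (log2 -4.68 ± 0.33). Atp6v1b1, a subunit of the vacuolar proton pump, had 1.37 and 2.23 TPM in NFIB/X-dKO, against 20.4 and 20.2 TPM in NFIX-cKO (log2 -3.74 ± 0.30). In these genes both NFIB/X-dKO libraries lay far below both NFIX-cKO libraries. Hsd3b6 and the carboxylesterase genes named below sit in clusters of closely related copies, where reads shared between copies are divided by estimation, so their values are uncertain. Aldh3a1, an aldehyde dehydrogenase, had 5.64 and 5.30 TPM in NFIB/X-dKO, against 40.1 and 44.7 TPM in NFIX-cKO (log2 -3.21 ± 0.19). Aadac, an arylacetamide deacetylase, had 1.49 and 1.5 TPM in NFIB/X-dKO, against 10.5 and 7.54 TPM in NFIX-cKO (log2 -3.02 ± 0.25). Serpina9, a serine protease inhibitor, had 0.22 and 0.23 TPM in NFIB/X-dKO, against 6.37 and 5.15 TPM in NFIX-cKO (log2 -4.69 ± 0.28). All of these pairs were separated by more than their spread. With the length offset Hsd3b6 had a log2 fold change of -4.07 and did not pass (adjusted p = 0.052). Of the 59 called genes 21 passed with that offset, and in this paragraph only Aldh3a1, Serpina9, Cyp4b1 and Ces2g did. Other metabolic genes that fell were the cytochrome P450 genes Cyp4b1 (log2 -2.47 ± 0.15), Cyp2f2 (-5.42 ± 0.45) and Cyp2g1 (-3.86 ± 0.32), the carboxylesterases Ces2e (-2.64 ± 0.22) and Ces2g (-2.08 ± 0.14), and the alcohol dehydrogenase Adh7 (-1.49 ± 0.11).

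Fam180a had 3.51 and 2.69 TPM in NFIB/X-dKO, against 30.4 and 36.4 TPM in NFIX-cKO (log2 -3.69 ± 0.26). Adamtsl3, a matrix protein related to the ADAMTS proteases, had 1.01 and 0.77 TPM in NFIB/X-dKO, against 6.12 and 4.01 TPM in NFIX-cKO (log2 -2.76 ± 0.20). Tgm5, a transglutaminase that crosslinks the cornified envelope, had 105 and 112 TPM in NFIB/X-dKO, against 512 and 455 TPM in NFIX-cKO (log2 -2.40 ± 0.14). Tgm5 and Elovl4, an elongase of very long fatty acids (log2 -1.61 ± 0.14), were the 2 lower of 40 genes of epidermal fate and differentiation tested, with 0 higher, by edgeR with all 4 libraries. The median of the list was -0.10, and -0.37 without NFIX-cKO 88, where edgeR called 13 lower and 2 higher. DESeq2 called 3 lower and 1 higher. Genes of matrix, channels and transport that also fell were Col8a2, a collagen (log2 -1.86 ± 0.12), Emilin3, an extracellular glycoprotein (-4.19 ± 0.32), Panx3, a pannexin channel (-6.56 ± 0.52), Slc43a1, an amino acid transporter (-2.24 ± 0.19), and Steap4, a metalloreductase (-2.06 ± 0.16). The receptor gene Cntfr, for ciliary neurotrophic factor, fell by 2.72 ± 0.21 (-2.0 with the length offset, adjusted p = 0.071) and the astacin protease gene Tll1 by 3.14 ± 0.27 on the log2 scale. The zinc finger genes Bnc1, active in basal keratinocytes, and Hivep3 fell by 1.47 ± 0.12 and 1.24 ± 0.11. Fam171b (log2 -2.72 ± 0.17) and Slc27a3, a long-chain acyl-CoA synthetase (-1.92 ± 0.12), complete the called protein-coding falls apart from those of the lipid list, with Gm13306 (-2.90 ± 0.10), whose reads cannot be told from near-identical copies of a chemokine gene and whose value is uncertain.

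Exons of 13 of the 59 genes overlap an exon of a gene on the other strand in GENCODE M21, and the strand of the authors' counting was not given in the sources used here. They include Myoc, Elovl3, Sardh, Timp3, Itga8, Nlgn1, Mest and Pde9a. If strand was not used in the counting, reads inside the shared stretch cannot be told from those of the opposite gene. The length of the shared stretch was not measured.

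Genes of the sebaceous gland and of lipid synthesis held more falls than any other list. Sebocytes, which arise from the upper follicle, make long-chain fatty acids, waxes and cholesterol esters, and hair follicle cells express part of the same enzymes. Of 27 genes tested, 6 fell and 0 rose, and the median of the list was -0.97 on the log2 scale, against -0.00 over all genes. Scd1 (chr19:44394455-44407879), the stearoyl-CoA desaturase, had 18.2 and 19.1 TPM in NFIB/X-dKO, against 81.5 and 64.6 TPM in NFIX-cKO. The NFIB/X-dKO pair was close and lay far below both NFIX-cKO libraries, and Scd1 fell 4.62-fold (log2 -2.21 ± 0.12). Elovl3, an elongase of very long fatty acids in sebaceous glands, had 0.21 and 0.27 TPM in NFIB/X-dKO, against 9.15 and 15.2 TPM in NFIX-cKO (log2 -5.92 ± 0.50, and -5.34 without NFIX-cKO 88). Elovl6, which elongates palmitate, had 12.1 and 10.6 TPM in NFIB/X-dKO, against 31.8 and 26.03 TPM in NFIX-cKO (log2 -1.61 ± 0.12). Acsbg1, an acyl-CoA synthetase (chr9:54604877-54661870), had 17.9 and 17.3 TPM in NFIB/X-dKO, against 42.7 and 33.9 TPM in NFIX-cKO (log2 -1.48 ± 0.11). These genes had no overlap between groups, which in normalised counts held for 50.4% of all genes tested. Soat1, which makes cholesterol esters, had 3.43 and 3.76 TPM in NFIB/X-dKO, against 11.6 and 8.39 TPM in NFIX-cKO (log2 -1.65 ± 0.12). Fabp5, a carrier of fatty acids in keratinocytes, had 44.4 and 42.4 TPM in NFIB/X-dKO, against 96.2 and 86.5 TPM in NFIX-cKO (log2 -1.25 ± 0.10).

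Several genes known from sebocytes were low in NFIB/X-dKO without passing the count test. Fa2h, which hydroxylates fatty acids, had 0.39 and 0.59 TPM in NFIB/X-dKO, against 16.6 and 31.2 TPM in NFIX-cKO (log2 -5.99 ± 0.58, adjusted p = 0.064). Cidea, a lipid droplet protein, had 0.87 and 0.38 TPM in NFIB/X-dKO, against 10.7 and 10.8 TPM in NFIX-cKO (adjusted p = 0.072). Pparg, the transcription factor of sebocyte and adipocyte differentiation, had 0.19 and 0.20 TPM in NFIB/X-dKO, against 2.14 and 1.64 TPM in NFIX-cKO (adjusted p = 0.067). The wax synthase gene Awat1 was likewise low, with 0.60 and 0.49 TPM in NFIB/X-dKO, against 4.09 and 4.81 TPM in NFIX-cKO (adjusted p = 0.071). Of the lipogenic genes, Fasn and Srebf1 were closer between the groups, while Scd1 and Elovl6 fell, as given above. Fasn, fatty acid synthase, had 38.2 and 39.9 TPM in NFIB/X-dKO, against 49.8 and 44.2 TPM in NFIX-cKO (log2 -0.18 ± 0.17). Srebf1, the transcription factor of lipogenic genes, had 60.2 and 67.0 TPM in NFIB/X-dKO, against 65.5 and 44.2 TPM in NFIX-cKO, with overlapping groups. Across the list, 22 genes were below 0 and 5 above on the log2 scale. Over all genes tested, edgeR with all 4 libraries called 0.202% lower, and DESeq2 called 2.65% lower and 1.92% higher. DESeq2 called 15 lower and 0 higher, and without NFIX-cKO 88 edgeR called 18 lower and 0 higher with a median of -1.19. In bulk samples, fewer cells of a type and less RNA per cell cannot be told apart, and sebocyte genes are part of this list. Adipocyte markers summed to at most 0.72 TPM in any library.

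**Figure D2:**
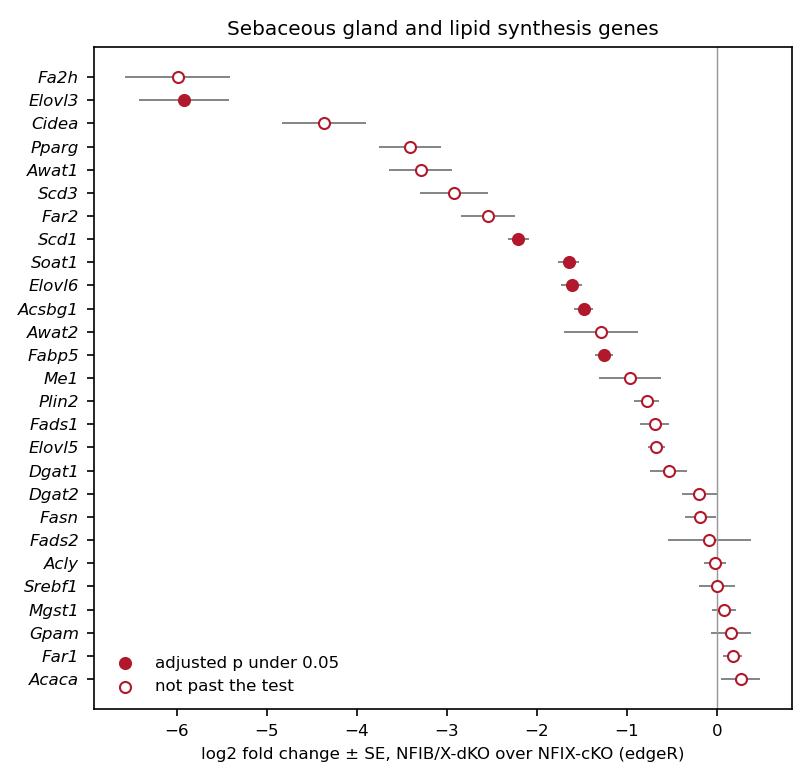
log2 fold change of NFIB/X-dKO over NFIX-cKO with its standard error (edgeR) for the 27 tested genes of the sebaceous gland and lipid list; filled points passed the test at an adjusted p under 0.05 and open points did not. Of the 27 points 22 lie left of 0, the 6 filled points lie between -5.92 and -1.25, and Srebf1 and Acly lie at 0.00 and -0.02.

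Promoters of members that moved together were read for the half-site TTGGC of nuclear factor I. The full palindrome of the family is TTGGC followed, after 5 bases of any kind, by GCCAA. The window was 250 bases before to 50 after the gene start in RefSeq (GRCm38.p6), searched on both strands, so that a full palindrome counts as 2 half-sites. Of the 37 genes that fell, 28 had an entry and 19 of these (67.9%) held a half-site, and of the 22 that rose 13 had an entry and 6 (46.2%) held one. The share was 50.1% of 11558 tested genes with an entry and 47.1% of 27025 promoters in all. The full palindrome was in 0 of the called genes and in 3 of the tested ones (0.026%). At least 2 half-sites were in 6 of the falling genes with an entry (21.4%) and in 1 of the rising ones (7.69%), against 17.2% of tested genes. A pair of promoters from falling genes, each with 2 half-sites in capitals, and a pair from rising genes with none are shown, with the gene on the strand that is read from left to right. They were picked as examples and do not stand for their groups. Aox1, which rose, held 3 half-sites, and Myoc, which fell, held 0.
Krt24 (chr11:99285213-99285512, minus strand): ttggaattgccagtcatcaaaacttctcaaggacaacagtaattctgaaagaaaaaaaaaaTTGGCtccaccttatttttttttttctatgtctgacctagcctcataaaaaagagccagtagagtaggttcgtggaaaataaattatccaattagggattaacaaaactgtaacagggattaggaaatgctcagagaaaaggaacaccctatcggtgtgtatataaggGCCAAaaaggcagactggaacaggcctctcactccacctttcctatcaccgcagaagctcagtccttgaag
Acsbg1 (chr9:54661836-54662135, minus strand): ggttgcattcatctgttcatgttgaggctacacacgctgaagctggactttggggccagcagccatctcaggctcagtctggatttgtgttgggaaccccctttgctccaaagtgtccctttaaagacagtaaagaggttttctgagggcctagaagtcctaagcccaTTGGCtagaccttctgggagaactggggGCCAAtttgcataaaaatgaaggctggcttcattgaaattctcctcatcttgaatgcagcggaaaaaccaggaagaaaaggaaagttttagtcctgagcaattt
Timp3 (chr10:86300162-86300461, plus strand): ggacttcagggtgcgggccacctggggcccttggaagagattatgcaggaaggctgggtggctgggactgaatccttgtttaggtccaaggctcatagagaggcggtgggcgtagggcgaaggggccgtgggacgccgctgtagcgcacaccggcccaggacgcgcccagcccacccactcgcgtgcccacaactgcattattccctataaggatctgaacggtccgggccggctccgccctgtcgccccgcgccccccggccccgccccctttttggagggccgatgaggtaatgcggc
Wif1 (chr10:121033754-121034053, plus strand): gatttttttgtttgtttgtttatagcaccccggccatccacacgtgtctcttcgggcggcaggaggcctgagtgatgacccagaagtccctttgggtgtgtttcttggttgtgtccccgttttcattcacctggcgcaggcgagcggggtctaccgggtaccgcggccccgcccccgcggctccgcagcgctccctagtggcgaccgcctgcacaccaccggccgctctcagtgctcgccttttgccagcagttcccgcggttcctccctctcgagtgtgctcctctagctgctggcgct
A match to the letters is a description and not a bound site, and its absence says only that the letters are not in this window.

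How many members of the other gene lists were called depended on the test. Of the 41 lists, 27 had 0 members called by edgeR with all 4 libraries, which called 0.322% of all genes. These 27 lists were grouped by having 0 calls, so 0 among their 452 tested genes was fixed by that choice. Of the 452, 99 had an unadjusted p under 0.05 (21.9%, against 14.7% of all genes tested). DESeq2 called 44 of them (9.73%, against 4.57% of all genes), and edgeR without NFIX-cKO 88 called 97 (21.5%, against 9.11%). Single members were called in lists of basement membrane and adhesion (Itga8, of 37), insulin-like growth factors (Pappa, of 15), imprinted genes (Mest, of 21), axon guidance (Gap43, of 35), glycan sulfotransferases (Chst9, of 21), amino acid transporters (Slc43a1, of 21), bone morphogenetic protein signalling (Grem1, of 40) and the inner bulge and companion layer (Timp3, of 7). Together with the Wnt list these 9 lists held 237 tested genes. DESeq2 called 48 of them (20.3%, against 4.57% of all genes), and edgeR without NFIX-cKO 88 called 77 (32.5%, against 9.11%). The lists were grouped by having 1 call each, and both alternatives called all 59 genes, so 9 of these calls were fixed by that choice. Of the 59 called genes, 39 were in no list.

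Lists that follow the state of the sorted cells were highest in NFIX-cKO 88, and NFIB/X-dKO 33 also lay apart for cell cycle genes. Immediate early and heat shock genes, which respond to tissue dissociation among other stimuli, summed to 25004 and 28718 TPM in NFIB/X-dKO, against 16398 and 37936.5 TPM in NFIX-cKO. Their sum was thus lowest and highest in the 2 NFIX-cKO libraries. Of 31 such genes edgeR called 0, with 1 at an unadjusted p under 0.05, and DESeq2 called 1, while the median was -0.43 with all 4 libraries and 0.65 without NFIX-cKO 88, with 18 called higher then. Hspa8, a constitutive chaperone, had 625 and 662 TPM in NFIB/X-dKO, against 1151 and 3047 TPM in NFIX-cKO. Mitochondrially encoded genes summed to 45126 and 44679 TPM in NFIB/X-dKO, against 47178 and 58522 TPM in NFIX-cKO, with 0 of 13 called by edgeR, 3 at an unadjusted p under 0.05 and 1 called by DESeq2. Cell cycle genes had a median of -0.69 (-0.41 without NFIX-cKO 88), with 0 of 42 called by edgeR, 12 at an unadjusted p under 0.05 and 4 called by DESeq2. The part of these differences in the results above was not tested.

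**Figure D3:**
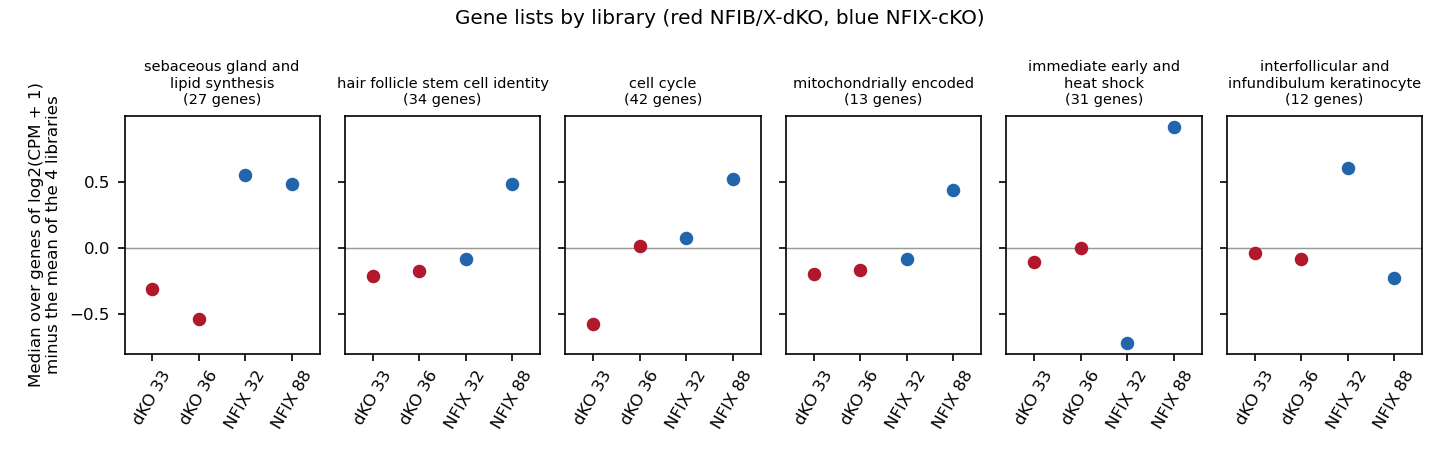
Median over the genes of a list of log2(CPM + 1), where CPM is counts scaled by library size and TMM factors, centred on the mean of the 4 libraries, for 6 lists; red points are NFIB/X-dKO 33 and 36 and blue points NFIX-cKO 32 and 88. The lipid list is lower in both NFIB/X-dKO libraries than in both NFIX-cKO libraries, while the immediate early and heat shock list is lowest in NFIX-cKO 32 and highest in NFIX-cKO 88.

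Markers of other cell types were read in the same way. Over 8 marker lists and 57 tested genes edgeR with all 4 libraries called 0, near its background of 0.322%, with 8 at an unadjusted p under 0.05 (14.0%, against 14.7% of all genes tested). DESeq2 called 5 (8.77%, against 4.57% of all genes), and edgeR without NFIX-cKO 88 called 13 (22.8%, against 9.11%). Immune markers summed to 27.7 and 26.9 TPM in NFIB/X-dKO, against 23.8 and 23.2 TPM in NFIX-cKO, and 11 of 17 were at or under 1 TPM in every library, with Mcpt4 and Cpa3 listed at 0. Melanocyte markers summed to 81.6 and 87.3 TPM in NFIB/X-dKO, against 68.4 and 65.7 TPM in NFIX-cKO. Fibroblast and dermal papilla markers summed to 193 and 200.5 TPM in NFIB/X-dKO, against 254 and 231 TPM in NFIX-cKO, with Lum and Twist2 listed at 0 and 9 of 14 at or under 1 TPM. All 5 of the marker genes that DESeq2 called were in the fibroblast list (2 higher and 3 lower). Col1a1, a chain of type I collagen, had 53.3 and 65.1 TPM in NFIB/X-dKO, against 14.6 and 8.27 TPM in NFIX-cKO (edgeR adjusted p = 0.072). Col1a2, another chain of it, went the other way, with 2.17 and 2.81 TPM in NFIB/X-dKO, against 10.6 and 33.56 TPM in NFIX-cKO (log2 -3.51 ± 0.70, edgeR adjusted p = 0.18, DESeq2 adjusted p = 1.5e-08). Col6a1 had 71.9 and 66.5 TPM in NFIB/X-dKO, against 143 and 123 TPM in NFIX-cKO (edgeR adjusted p = 0.067). Of the 9 fibroblast genes tested, 6 were below 0 and 3 above on the log2 scale. Endothelial and pericyte markers were at or under 1 TPM for 8 of 10, and summed to 60.2 and 74.9 TPM in NFIB/X-dKO, against 72.9 and 57.0 TPM in NFIX-cKO. Most of each sum was Cspg4, with 57.85 and 72.84 TPM in NFIB/X-dKO, against 70.63 and 54.3 TPM in NFIX-cKO, so the sum mainly follows that gene. Muscle markers summed to at most 7.58 TPM in any library. Keratinocytes of the interfollicular epidermis and infundibulum had markers summing to 3866 and 3697 TPM in NFIB/X-dKO, against 4558 and 1888 TPM in NFIX-cKO, with the widest spread in NFIX-cKO.

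The same genes were then read where NFIB was lost with NFIX intact, by comparing NFIB-cKO with WT, a contrast that shares no library with the first. It was fitted with limma on log2(TPM + 1), since TPM was used for WT, and the YFP gate was used for NFIB-cKO and not for WT. Limma called 111 genes, which is 0.719% of 15434 genes tested, 45 of them higher (0.292%) and 66 lower (0.428%). That count was 11 without NFIB-cKO 81, 12 without NFIB-cKO 85, 38 without WT 34, 37 without NFIB/X-dKO 33 and 34 without NFIB/X-dKO 36; all 8 libraries enter this fit with 1 shared estimate of the spread. Of the 58 genes called between NFIB/X-dKO and NFIX-cKO and tested in both, 53 had the same sign in NFIB-cKO against WT (91.4%), against 45.8% of all 14691 genes tested in both. Among those that fell, 36 of 37 were also lower in NFIB-cKO than in WT (97.3%, against 48.5% of all genes), and 17 of them passed the test there. Among those that rose, 17 of 21 were also higher (80.95%, against 51.5% of all genes), and 6 of them passed the test. In the other direction, 27 of the 111 genes called between NFIB-cKO and WT (24.3%) were among the 59 (45.8% of these). The share of same signs was 78.9% for the longer list of DESeq2 calls, 76.0% for the calls made without NFIX-cKO 88, and 37.7% for the 6157 tested calls made without NFIX-cKO 32.

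Mest, Piezo2, Timp3 and Krt24 were changed in both contrasts. Mest had 18.1 and 21.6 TPM in NFIB-cKO, against 2.17 and 2.52 TPM in WT (log2 2.64 ± 0.17, limma adjusted p = 0.0022). Piezo2 had 15.8 and 20.5 TPM in NFIB-cKO, against 1.79 and 2.18 TPM in WT (log2 2.67 ± 0.19, adjusted p = 0.0033). In both genes the NFIB/X-dKO level given above was higher than in NFIB-cKO, and WT was the lowest of the 4 genotypes. Timp3 had 81.7 and 64.0 TPM in NFIB-cKO, against 18.2 and 23.5 TPM in WT (log2 1.76 ± 0.19, adjusted p = 0.015). Krt24 had 46.0 and 71.1 TPM in NFIB-cKO, against 460 and 353 TPM in WT (log2 -2.80 ± 0.22, adjusted p = 0.00505). Myoc had 1.27 and 0.29 TPM in NFIB-cKO, against 70.8 and 30.9 TPM in WT (log2 -4.80 ± 0.55, adjusted p = 0.018). Sardh, Serpina9, Scd1, Acsbg1 and Elovl6 were also lower in both contrasts, with Scd1 at 26.5 and 33.7 TPM in NFIB-cKO, against 103 and 178 TPM in WT (log2 -2.14 ± 0.27, adjusted p = 0.023). The lipid list had a median of -1.07 between NFIB-cKO and WT. The cell cycle list had a median of 1.51 there, where it was -0.69 between NFIB/X-dKO and NFIX-cKO, and this difference was not tested.

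Some genes called between NFIB/X-dKO and NFIX-cKO were not called between NFIB-cKO and WT. Atp6v1b1 had 5.77 and 13.0 TPM in NFIB-cKO, against 11.2 and 11.9 TPM in WT (log2 -0.37 ± 0.34, adjusted p = 0.74), and Hsd3b6 had 2.03 and 2.80 TPM in NFIB-cKO, against 3.73 and 10.2 TPM in WT (log2 -1.10 ± 0.39, adjusted p = 0.29). Wif1 had 103 and 157 TPM in NFIB-cKO, against 54.5 and 78.3 TPM in WT (log2 0.95 ± 0.24, adjusted p = 0.14), and Gap43 had 3.10 and 1.98 TPM in NFIB-cKO, against 0.18 and 0.31 TPM in WT (log2 1.49 ± 0.25, adjusted p = 0.062). A miss in one contrast does not show that the effect of NFIB loss differs, so the difference between the contrasts was tested. The contrasts also differ in other ways. NFIX-cKO mice carried Cre and 1 floxed Nfib allele. WT mice had no Cre and were sorted without the YFP gate. NFIB/X-dKO animals were numbered 33 and 36, and NFIB-cKO animals 81 and 85. NFIX-cKO (32 and 88) and WT (34 and 82) each had 1 number of either range. A joint effect of NFIB and NFIX cannot be told apart from these differences. This non-additive contrast, NFIB/X-dKO minus NFIX-cKO less NFIB-cKO minus WT, called 18 genes (0.117% of those tested), 10 higher (0.0648%) and 8 lower (0.0518%), with 1455 at an unadjusted p under 0.05 and a median gene of 0.18. It called 7 and 8 genes without NFIB-cKO 81 and 85, 9 without WT 34, and 6 and 7 without NFIB/X-dKO 33 and 36. With a term for the first digit of the animal number the non-additive contrast called 13 genes. Without that term the contrast was -2.57 for Atp6v1b1 (adjusted p = 0.29) and -1.15 for Hsd3b6 (adjusted p = 0.52). It was 1.23 for Wif1 (adjusted p = 0.44) and 1.47 for Gap43 (adjusted p = 0.40), none past the test.

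The genes that did pass it among the 59 were Gm9825, Gm13443, Gm14292, Pde9a and Cyp2g1. Pde9a (chr17:31386210-31476310), a phosphodiesterase specific for cyclic GMP, had 4.81 and 6.27 TPM in NFIB/X-dKO, against 0.18 and 0.07 TPM in NFIX-cKO (log2 5.78 ± 0.39 from counts). It had 0.11 and 0.27 TPM in NFIB-cKO, against 4.14 and 4.06 TPM in WT (log2 -2.10 ± 0.22, adjusted p = 0.015). The gene was thus near 0 in both single knockouts and above 4 TPM in every NFIB/X-dKO and WT library (non-additive contrast 4.63, adjusted p = 0.0032). Tagap, also on chromosome 17, had 0.97 and 0.87 TPM in NFIB/X-dKO, against 0.02 and 0.01 TPM in NFIX-cKO, and 0.03 and 0 TPM in NFIB-cKO, against 0.55 and 0.40 TPM in WT, too low for the TPM filter. The 3 processed pseudogenes had the same pattern: Gm9825 had 17.7 and 18.6 TPM in NFIB/X-dKO, against 0 counts in both NFIX-cKO libraries, and was at least 174-fold higher with a floor of 3 counts per library. Reads of processed pseudogenes can be shared with their parent genes, so these values are uncertain. WT and NFIB/X-dKO mice both carried NFIBfl/fl with NFIXfl/fl, and neither single knockout was labelled with both. Whether the pattern goes with that shared genotype was not tested. Cyp2g1, a cytochrome P450 of the olfactory epithelium, had the opposite pattern, with 1.19 and 1.92 TPM in NFIB/X-dKO, against 17.9 and 19.9 TPM in NFIX-cKO, and 10.1 and 13.4 TPM in NFIB-cKO, against 6.19 and 2.78 TPM in WT (non-additive contrast -4.26, adjusted p = 0.039). It was the 1 falling gene of the 37 whose sign differed between the contrasts.

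**Figure D4:**
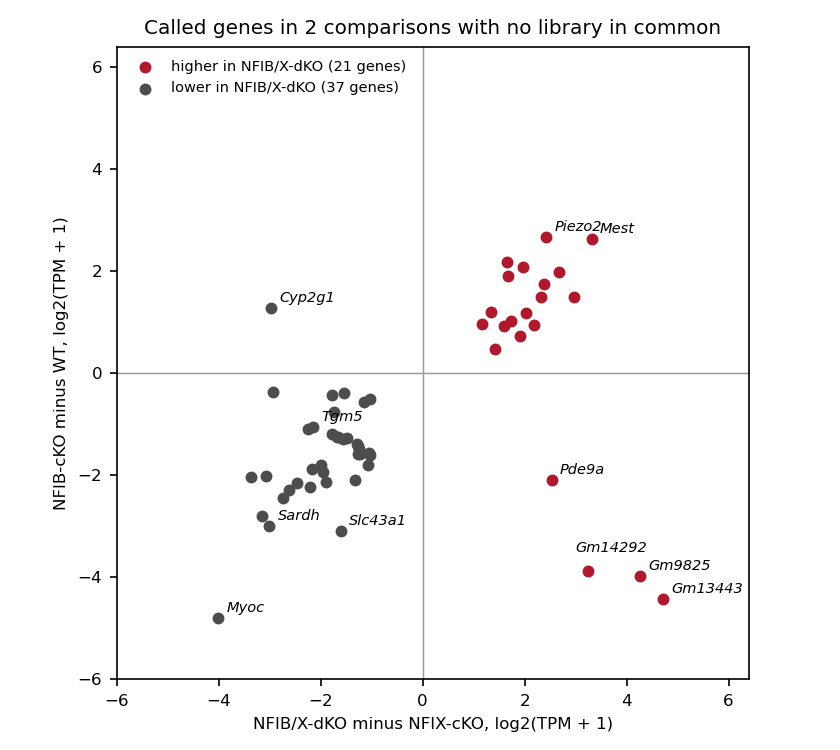
log2(TPM + 1) difference of NFIB/X-dKO minus NFIX-cKO (x) and of NFIB-cKO minus WT (y) from limma for the 58 called genes tested in both; each point is a gene, red for the 21 higher and grey for the 37 lower in NFIB/X-dKO by the count test. The 53 genes with the same sign lie in the upper right and lower left, and Pde9a, 3 pseudogenes and Cyp2g1 lie in the other quadrants.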

How the data were processed

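RNA from sorted hair follicle stem cells was sequenced as paired ends from TruSeq mRNA libraries, per the labels' protocols. The authors deposited RSEM expected counts per gene and library, and TPM for all 8 libraries. RSEM 1.2.30, Bowtie2 2.2.9 and mm10 (GRCm38) are named in the submitters' processing notes, and neither the annotation release nor any read filter is given in the sources used here. Depth, 57173266 to 63773522 expected counts in the 4 libraries of the main comparison, sets the counting precision.

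Expected counts were rounded to whole numbers. NFIB/X-dKO was compared with NFIX-cKO by edgeR 4.0.16 (TMM, filterByExpr, quasi-likelihood F test, R 4.3.3), with Benjamini-Hochberg adjusted p under 0.05 as the threshold, and standard errors were taken as the fold change over the root of F. NFIB-cKO against WT and the non-additive contrast were tested with limma 3.58.1 on log2(TPM + 1) of 8 libraries (pseudocount 1, at least 1 TPM in at least 2 libraries), a scale that understates changes of low genes. DESeq2 1.42.0, other scalings, filters and left-out libraries were alternatives. Scripts were tested on simulated data. Coordinates and gene types are from GENCODE M21, which held 18238 of the 18349 genes tested.

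The 24 leading genes were the 12 rises and 12 falls past the test that were largest, required to average at least 5 TPM in the higher group and not to overlap, without predicted genes and pseudogenes. Also named were the nuclear factor I genes, sort and bulge markers, up to 5 members by p of lists with at least 3 calls and of marker or stress lists, and the 5 called genes with the smallest p in the non-additive contrast. Other called genes, and members of the lipid list beyond those, were named after their values were seen. The members and the 41 gene lists were chosen with earlier results of these data known.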

Additional observations from a re-analysis of the deposited data

Results flagged for a closer look

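Taken up here, on the log2(TPM + 1) scale, were genes called between NFIB/X-dKO and NFIX-cKO that also passed limma's test of the non-additive contrast. That contrast asks whether the NFIB/X-dKO minus NFIX-cKO difference departed from the NFIB-cKO minus WT difference. It also called genes with other patterns, among them Esr1 (-4.87, adjusted p = 0.015), which was near 0 in WT alone. Gm10157 was near 0 except in NFIX-cKO, and Gm25731 except in NFIB-cKO. The departure was 8.23 for Gm9825, 9.15 for Gm13443, 7.12 for Gm14292, 4.63 for Pde9a and -4.26 for Cyp2g1. Gm13443 had 32.7 and 30.5 TPM in NFIB/X-dKO, against 0.23 and 0.24 TPM in NFIX-cKO, and 0 TPM in both NFIB-cKO libraries, against 24.7 and 17.0 TPM in WT. Gm14292 had 12.6 and 14.4 TPM in NFIB/X-dKO, against 0.65 and 0.41 TPM in NFIX-cKO, and 0 TPM in both NFIB-cKO libraries, against 14.5 and 13.0 TPM in WT. Gm9825 had 0.06 and 0.16 TPM in NFIB-cKO, against 17.95 and 15.03 TPM in WT. These pseudogenes and Pde9a were thus near 0 in both single knockouts, and Cyp2g1 was lower in every NFIB/X-dKO and WT library than in the single knockouts. Gm6311, another processed pseudogene called by this contrast, had 640 and 443 TPM in WT, and 645 and 618 TPM in NFIB/X-dKO. It had 0.90 and 1.18 TPM in NFIB-cKO, and 0.94 and 0 TPM in NFIX-cKO. In NFIB-cKO against WT, the YFP gate and Cre cannot be told apart from the genotype. NFIB/X-dKO and NFIX-cKO shared the gate. WT and NFIB/X-dKO were both labelled NFIBfl/fl with NFIXfl/fl, and neither single knockout was. Whether the pattern goes with that shared genotype was not tested.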

How the results depend on the processing

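The count of genes called between NFIB/X-dKO and NFIX-cKO was 59. It was 839 with DESeq2, 36 with library totals only, 202 with no filter on low counts, 21 with effective length as an offset and 121 with limma on TPM. Among alternatives chosen after seeing the data it was 169 for limma with a term for the first digit of the animal number, 96 for limma on scaled TPM and 1435 for DESeq2 without NFIX-cKO 88. Leaving out 1 library gave 0 to 6939. The 59 genes kept their direction in all of these (58 of them entered limma), and 57 of them were called with median-of-ratios factors, 32 with library totals and 21 with the length offset. The shares with the same sign in NFIB-cKO against WT were 78.9% with DESeq2, 37.7% and 76.0% for counts without NFIX-cKO 32 and 88, and 77.0% with DESeq2 without NFIX-cKO 88.

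The NFIB-cKO against WT count of 111 was 29 with no filter on TPM, 200 with the animal-number term, and 11 to 157 with 1 library left out. The non-additive count of 18 was 9 with a pseudocount of 0.1, 61 with no filter and 6 to 16 with 1 library left out. Some genes not past the count test with all 4 libraries changed sign. Sox9 was 0.0608 by limma, 0.25 with the animal-number term and 0.39 by DESeq2 without NFIX-cKO 88, and -0.68 to 0.39 with 1 library left out. Nfix was 0.0303 with library totals, 0.0587 by limma, 0.0154 with the animal-number term and -0.218 to 0.0446 with 1 left out. Nfic was 0.0932 with library totals, 0.0343 with the length offset, 0.27 by limma, 0.0565 with the animal-number term, 0.0548 on scaled TPM and -0.14 to 0.15 with 1 left out. Ly6a was 0.000298 by DESeq2, 0.0524 with library totals, 0.37 by limma, 0.16 on scaled TPM and -0.57 to 0.95 with 1 left out. For NFIB-cKO against WT, Atp6v1b1 was -0.89 to 0.16 with 1 left out. The cause was not tested.

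No paired analysis was possible because the groups share no replicate number. Depth was known for the counts and not for the TPM of WT, and the 2 libraries in each group limit the precision of every spread given.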
